A study of Mus musculus with 18 samples.

Results

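The genes described here carry the insulin signal into heart muscle or set which fuel the muscle burns, and they are 10 of the 21883 protein-coding genes of the mouse gene table: Insr, Igf1r, Irs1, Irs2, Pid1, Slc2a4, Cd36, Elovl5, Ppara and Ppargc1a. Pid1 and Elovl5 were chosen by the presence of peaks: 1 stretch in each had a peak of methylated DNA in 14 of 15 libraries made after myocardial infarction (MI) and in no sham library. The other 8 are the receptors, adaptors, transporters and regulators of the same pathways and were listed by function. Each gene was taken with 2000 bases on either side, and overlapping peaks of all libraries were merged into regions, of which 122 of 152196 lay in these gene windows.

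The study followed DNA methylation in the heart over the first days after MI. All 18 mice were 12-week-old C57BL/6JR males, with no genetic change given in the labels. In 15 of them the left anterior descending coronary artery was tied, and heart muscle was taken from 3 mice each 10 min after the tie, after 1 h or 6 h, or after 24 h or 72 h, while 3 sham mice had the operation with the suture passed but left untied. Methylated DNA was pulled down with an antibody against 5-methylcytosine and sequenced (MeDIP-seq), 1 library a mouse. The labels call the samples myocardial tissue and their cells cardiomyocytes. They give no step that separates cells, and peaks of methylated DNA do not measure expression, so the cell type could not be checked against its markers. In such bulk DNA, a change in the mixture of cells and a change of methylation per cell cannot be told apart.

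Insulin and insulin-like growth factor bind receptor tyrosine kinases, Insr and Igf1r, which phosphorylate the adaptor proteins Irs1 and Irs2; these in turn recruit phosphoinositide 3-kinase, and one outcome in muscle is that the glucose transporter GLUT4 moves to the cell surface. The adult heart burns mainly fatty acids, taken up through CD36, and the nuclear receptor PPARα with its coactivator PGC-1α keeps the genes of fatty acid oxidation active. After loss of blood supply the heart is known to lean more on glucose. Methylation of a CG-rich promoter usually goes with silence of the gene, whereas methylation inside gene bodies is common and has no fixed relation to expression.

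Peaks were called by the authors in each library separately, and a score was deposited with each peak. The lists held 34255 (6 h replicate 3) to 60653 (72 h replicate 2) peaks, and the lowest score was 50 in each list. The score is the authors' value, its scale is not stated, and a higher score is read here only as a stronger peak within a list. No read counts were used, so the depth of the libraries is unknown and no counting interval is given. A library had a peak in 19 (6 h replicate 3) to 40 (72 h replicates 1 and 2) of the 122 regions. Set against the length of its list this was 0.55 to 0.752 regions per 1000 peaks, and the sham range of 0.564 to 0.688 lay inside that of the MI libraries.

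Most regions of these genes were seen in few libraries. A peak in 1 library alone was found for 42 of the 122 regions (34.4%, against 29.2% of all regions), and 20 regions (16.4%, against 25.2%) had a peak in at least 9 libraries. Only 3 regions (2.46%, against 5.09%) had a peak in all 18 libraries, and these lay in Insr, Igf1r and Irs2. Density differed between the genes: Irs2 had 14.2 regions per 100 kb of window, Elovl5 12.6, Igf1r 11.9, Ppara 11.9 and Slc2a4 10.1, while Insr had 7.53, Ppargc1a 5.56, Irs1 4.81, Pid1 3.90 and Cd36 2.70. A second measure was the covered percent, the share of a gene window under peaks of a library. Averaged over the 18 libraries it ran from 0.106% in Cd36 (percentile 25.7 of all protein-coding genes) to 10.1% in Slc2a4 (percentile 95.9). The median of the 10 genes was 2.60%, and that of all genes was 1.56%.

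**Figure D1:**
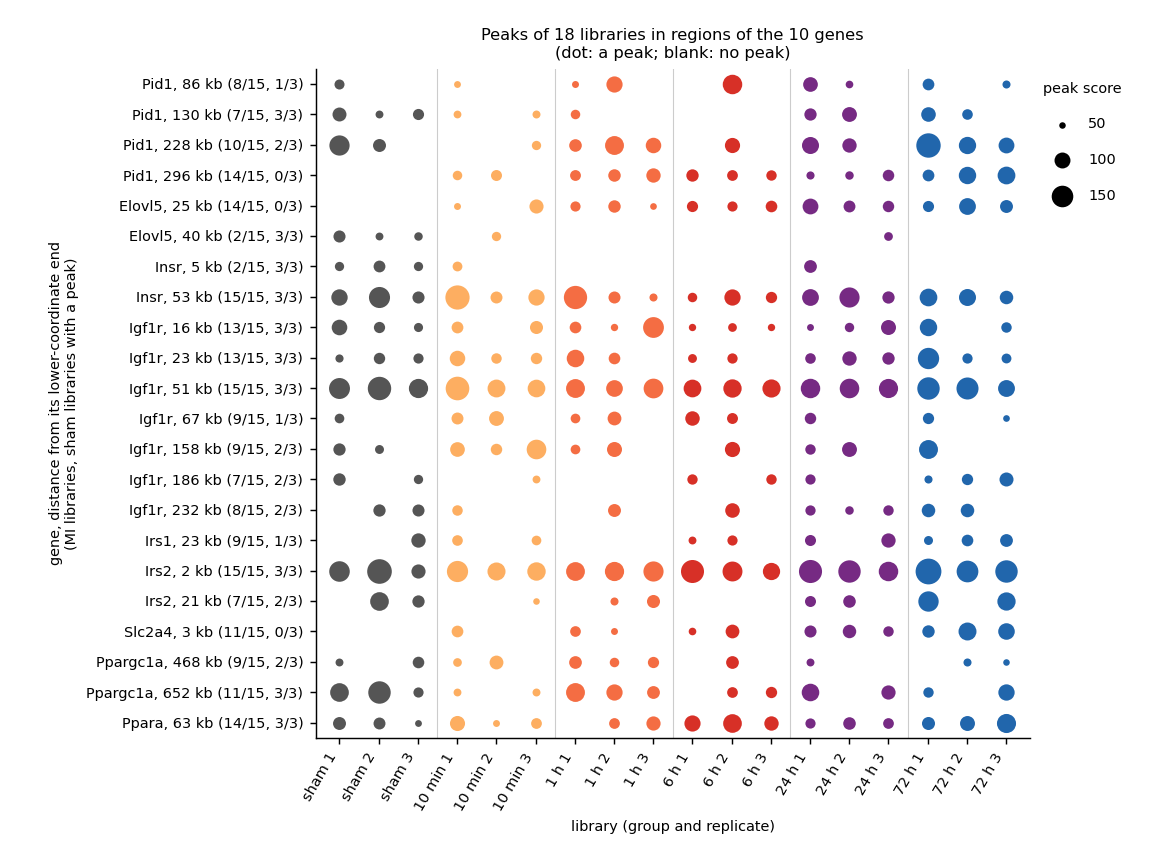
Peaks in the 22 regions of the 10 genes that had a peak in at least 9 of 18 libraries or differed between MI and sham by presence; rows are regions with their distance in kb from the lower-coordinate end of the gene, columns are libraries, and dot area grows with the authors' score. The Pid1 row at 296 kb and the Elovl5 row at 25 kb are empty in the 3 sham columns and filled in 14 of 15 MI columns, and the Elovl5 row at 40 kb and the Insr row at 5 kb show the opposite.

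The starts of these genes were free of peaks. RefSeq (GRCm38.p6) gave a start for 8 of the 10 genes, and in no library did a peak touch the stretch from 250 bases before to 50 bases after any of them. The CG pairs, the sites where cytosine is methylated, are capitals in the 4 upstream sequences printed below (250 bases each, 5′ to 3′ on the gene's strand), shown because Pid1 and Elovl5 hold the chosen regions and Igf1r and Cd36 are the richest and the poorest in CG of the 8.
Igf1r, chr7:67952007-67952256, plus strand: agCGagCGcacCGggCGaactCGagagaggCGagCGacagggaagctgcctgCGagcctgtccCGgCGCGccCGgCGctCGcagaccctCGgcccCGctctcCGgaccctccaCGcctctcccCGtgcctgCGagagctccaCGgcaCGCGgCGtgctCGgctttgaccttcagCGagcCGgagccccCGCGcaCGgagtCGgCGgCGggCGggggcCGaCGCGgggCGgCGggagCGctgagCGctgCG
Elovl5, chr9:77917115-77917364, plus strand: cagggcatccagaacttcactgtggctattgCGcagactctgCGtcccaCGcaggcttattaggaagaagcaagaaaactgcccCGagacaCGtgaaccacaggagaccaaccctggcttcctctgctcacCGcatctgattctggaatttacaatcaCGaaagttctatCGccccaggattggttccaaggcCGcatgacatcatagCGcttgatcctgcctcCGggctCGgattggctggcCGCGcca
Pid1, chr1:84284646-84284895, minus strand: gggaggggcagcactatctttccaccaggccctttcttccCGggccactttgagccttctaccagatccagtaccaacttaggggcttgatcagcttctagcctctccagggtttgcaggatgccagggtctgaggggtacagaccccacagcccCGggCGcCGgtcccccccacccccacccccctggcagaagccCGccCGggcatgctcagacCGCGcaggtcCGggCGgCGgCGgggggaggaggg
Cd36, chr5:17835897-17836146, minus strand: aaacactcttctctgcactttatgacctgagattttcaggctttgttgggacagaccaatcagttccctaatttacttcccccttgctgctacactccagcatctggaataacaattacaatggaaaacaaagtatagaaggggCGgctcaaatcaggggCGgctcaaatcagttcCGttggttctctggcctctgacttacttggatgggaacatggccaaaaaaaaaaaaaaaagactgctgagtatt

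Igf1r held 42 CG pairs in these 250 bases, Irs2 34, Irs1 28 and Ppara 27. Elovl5 held 14 and Pid1 12, close to the median of 10 over the 17491 promoters of the table, and Ppargc1a held 5 and Cd36 3. The motif searched was CG, which reads the same on both strands, and 92.7% of promoters of this length held it. A start window with a peak was uncommon in general: 6.07% of promoters had one in any library. By CG content this was 8.76% with 0 to 5 pairs, 11.1% with 6 to 11, 3.19% with 12 to 19, 0.856% with 20 to 29 and 0.243% with 30 or more. The absence of peaks at the 8 starts was therefore what most promoters showed. The nearest peak of any library lay 1.35 kb from the start window in Irs1, 2.19 kb in Cd36, 2.87 kb in Irs2, 3.44 kb in Igf1r and 5.49 kb in Ppara. In Elovl5, Ppargc1a and Pid1 it was 9.27, 9.90 and 10.3 kb away.

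**Figure D2:**
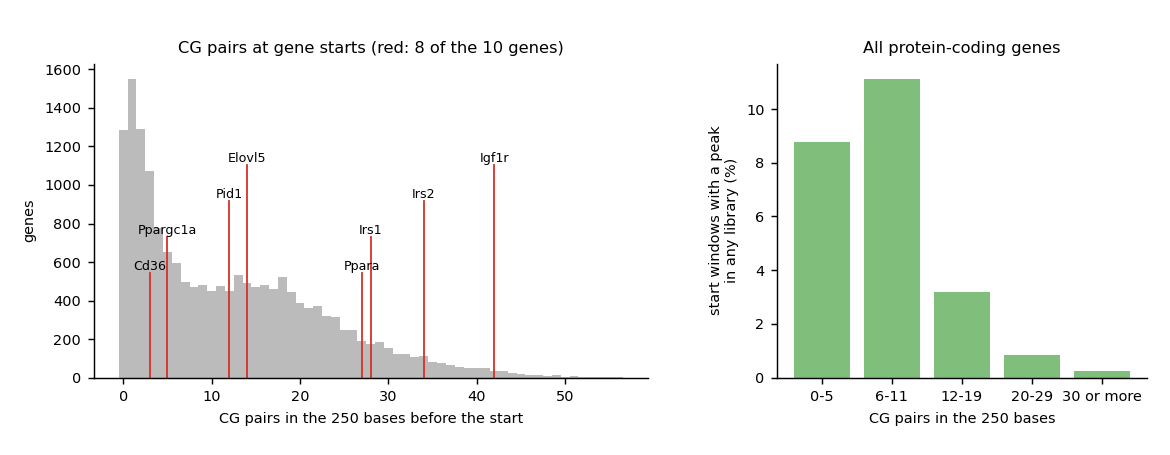
Left, CG pairs in the 250 bases before the start of 17491 genes (grey, number of genes on the y axis), with red lines at the values of 8 of the 10 genes (line height has no meaning). Right, percent of start windows with a peak in any library by CG pairs, which was highest at 6 to 11 pairs (11.1%) and lowest at 30 or more (0.243%).

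Insr, the insulin receptor (chr8:3150922-3279649), held 10 regions. Its region at chr8:3202691-3204189 had a peak in every library. Its scores were 103.18, 144.78 and 74.60 in sham, and in MI they ran from 55.30 (1 h replicate 3) to 178.53 (10 min replicate 1), so the groups overlapped throughout. A shorter region near the lower-coordinate end, chr8:3155153-3156291, differed by presence between sham and ligated mice. It had a peak in all 3 sham libraries (scores 60.25, 72.92 and 60.22) and in 2 of 15 MI libraries, 10 min replicate 1 (62.64) and 24 h replicate 1 (78.56). None of the libraries at 1 h, 6 h or 72 h had a peak there, and the nearest peak in a library without one was 4.59 kb away. Fisher's exact test (two-sided) gave p = 0.0123, which did not hold over all regions (adjusted p = 1). The unadjusted value follows from the presence counts for which the region is described here, so it is no separate support. With peaks of score 70 or more, 1 MI and 1 sham library kept a peak.

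By the rule used for a region lower in MI, a peak in at most 3 of 15 MI libraries and all 3 sham libraries, 2 of the 122 regions were called: this one in Insr and one in Elovl5. Over all regions the rule called 0.252%. The opposite rule, a peak in at least 12 MI libraries and none in sham, called 0.0375% of all regions, and among these genes it called the 2 regions that were used to pick Pid1 and Elovl5. When 1 library was left out, the rules were applied as shares of the remaining libraries, so their strictness changed too. The 384 lower regions of the whole series became 2167 without sham replicate 3. The 57 higher regions became 422 without sham replicate 2 and 14 without 72 h replicate 1. Both counts rose whichever sham library was left out and fell whichever MI library was. These moves therefore do not show dependence on particular libraries. Fisher's exact test with Benjamini-Hochberg adjustment passed 0 of 152196 regions, 1306 regions had an unadjusted p under 0.05, and with 3 sham libraries the smallest p it can give is 0.00123.

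Over the whole Insr window the covered percent was 2.05% ± 0.613 in sham (SD, n = 3) and 1.49% ± 0.586 in MI (SD, n = 15), and 14 of 15 MI libraries lay below the sham mean. The exact permutation test (two-sided) gave p = 0.140 and an adjusted p of 1 over all genes. At 1 h the values were 1.19%, 1.31% and 0.891%, below all of the sham values of 2.08%, 1.42% and 2.64%. The exact permutation p was 0.1, the smallest that 3 against 3 libraries can give, and 4.72% of all genes lay below sham in this way at 1 h. A list of 8 leukocyte marker genes includes Ptprc and Cd68. Its mean covered percent was 0.795% to 0.945% at 1 h and 0.133% to 0.580% in sham. This mean rests on few genes, since 4 of the 8 had no peak in any library. The mean over 7 fibroblast genes, such as Col1a1 and Pdgfra, was 2.65% to 3.82% at 1 h and 1.91% to 2.64% in sham. Means over 8 cardiomyocyte and 6 endothelial genes overlapped sham at 1 h. They were 2.94% to 4.21% against 2.78% to 3.68% in sham, and 2.55% to 3.27% against 2.68% to 4.86%. The part of these lists in the Insr value was not tested. At the other times the groups overlapped, and the highest value of all was that of 24 h replicate 1, 3.20%, one of the 2 MI libraries with a peak in the short region.

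Igf1r, the receptor for insulin-like growth factor (chr7:67952257-68233668), held 34 regions, 7 of them with a peak in at least 9 libraries. The region at chr7:68002499-68004818, 51.4 kb downstream of the start, had a peak in all 18 libraries, with scores of 143.59, 169.20 and 127.26 in sham and of 105.83 (1 h replicate 2) to 171.84 (10 min replicate 1) in MI. In each list this peak stood at the 81.8th percentile of scores or higher. Regions at 16.3 and 23.4 kb from the start, chr7:67967790-67969271 and chr7:67974926-67976392, were marked in all 3 sham and 13 of 15 MI libraries each. The remaining 4 recurrent regions, at 67.0, 158.2, 186.0 and 232.4 kb, had a peak in 9 to 11 libraries, with 1 or 2 sham libraries among them. The strongest Igf1r peaks thus stood in the same places in sham and MI libraries.

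The covered percent of Igf1r was 4.25% ± 1.85 in sham (SD, n = 3) and 3.90% ± 1.01 in MI (SD, n = 15; exact permutation p = 0.651, adjusted p = 1), and every time point overlapped sham. A region at chr7:68062407-68064549 had a peak in the 3 libraries at 6 h and in 0 of 3 sham libraries. Of the other MI libraries 1 each of the 10 min, 1 h and 72 h groups had a peak there, and none of the 24 h group.

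Irs1 (chr1:82233105-82291439), the main insulin receptor adaptor of muscle, held 3 regions, 1 of them recurrent. That region, chr1:82255600-82256906, lay 35.2 kb downstream of the start and was marked in 9 MI libraries out of 15 and in 1 of the 3 from sham mice. No library at 1 h had it, and all 3 libraries at 72 h did, with scores of 59.09, 71.95 and 78.73. In the Irs1 window the covered percent was 0%, 0% and 2.99% in the 3 sham libraries. The 6 h libraries had 1.74%, 4.34% and 2.10%, and the 72 h libraries 5.71%, 6.38% and 2.07%. One sham library lay within the range of both times, so neither time separated from sham. The MI mean was 2.28% ± 2.003 (SD, n = 15) and the sham mean 0.995% ± 1.72 (SD, n = 3; exact permutation p = 0.314, adjusted p = 1).

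Irs2 (chr8:10984681-11008929), the second adaptor, had the strongest recurrent peak of the 10 genes. The region chr8:10986033-10987516, at the far end of the gene and 22.2 kb downstream of its start, had a peak in all 18 libraries with a mean score of 141.6. Scores were 139.76, 183.16 and 87.21 in sham and 110.28 (6 h replicate 3) to 196.97 (72 h replicate 1) in MI, so the lowest and the second highest value came from sham. A weaker region closer to the start, chr8:11004413-11006008, was marked in 2 of the 3 sham libraries and 7 of the 15 after MI, none of them at 6 h. The covered percent was 6.06%, 8.21% and 8.33% in sham. At 6 h it was 4.12%, 3.87% and 4.44%, below each sham value (exact permutation p = 0.1, the smallest possible; 3.6% of all genes lay below sham at 6 h). The 6 h lists held 34255 to 50535 peaks and the sham lists 44328 to 60130. The fibroblast genes were at 2.65% to 3.34% at 6 h, above sham, while the cardiomyocyte, leukocyte and endothelial genes overlapped sham. The part of list length and of these marker genes in the Irs2 value was not tested. By 24 h the groups overlapped again, with 6.74%, 12.6% and 4.11%, and over all MI libraries the mean was 6.46% ± 2.93 (SD, n = 15) against 7.53% ± 1.28 (SD, n = 3; exact permutation p = 0.580, adjusted p = 1).

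Pid1 (chr1:84036293-84339842) encodes a phosphotyrosine-interaction-domain protein known to dampen insulin signalling at the receptor adaptors. Its chosen region was chr1:84331464-84332840, inside the annotated gene and 47.5 kb upstream of the start given in the promoter table. No sham library had a peak there, and their nearest peak was 7.53 kb away. At 10 min replicates 1 and 2 had scores of 61.38 and 68.49, and replicate 3 had no peak. The 1 h libraries scored 67.72, 76.77 and 88.63, the 6 h libraries 76.06, 67.39 and 65.55, the 24 h libraries 55.66, 56.91 and 71.28, and the 72 h libraries 72.66, 111.36 and 114.50. These were mid-strength peaks: they stood between percentiles 15.03 and 87.3 of their lists, with a median at the 46.5th. All 14 peaks shared a core of 709 bases, chr1:84331692-84332400, so they marked the same stretch.

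Elongase 5, encoded by Elovl5 (chr9:77917365-77984519), lengthens polyunsaturated fatty acids. Its chosen region was chr9:77941752-77943374, 25.2 kb downstream of the start. No sham library had a peak there, and their nearest peak was 3.95 kb away. The 10 min libraries had scores of 51.39 (replicate 1) and 87.03 (replicate 3), and replicate 2 had no peak. The 1 h libraries scored 64.47, 76.44 and 50.58, the 6 h libraries 69.52, 64.44 and 71.88, the 24 h libraries 99.06, 73.27 and 70.87, and the 72 h libraries 69.22, 106.51 and 79.43. The 14 peaks shared 498 bases, and their median stood at the 51.8th percentile of the lists. The 2 chosen regions had the same state, peak or none, in 16 of 18 libraries, the least that their choice allows; the 2 that differed were 10 min replicate 2, whose list of 37084 peaks was the second shortest, and 10 min replicate 3, with 44028 peaks.

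**Figure D3:**
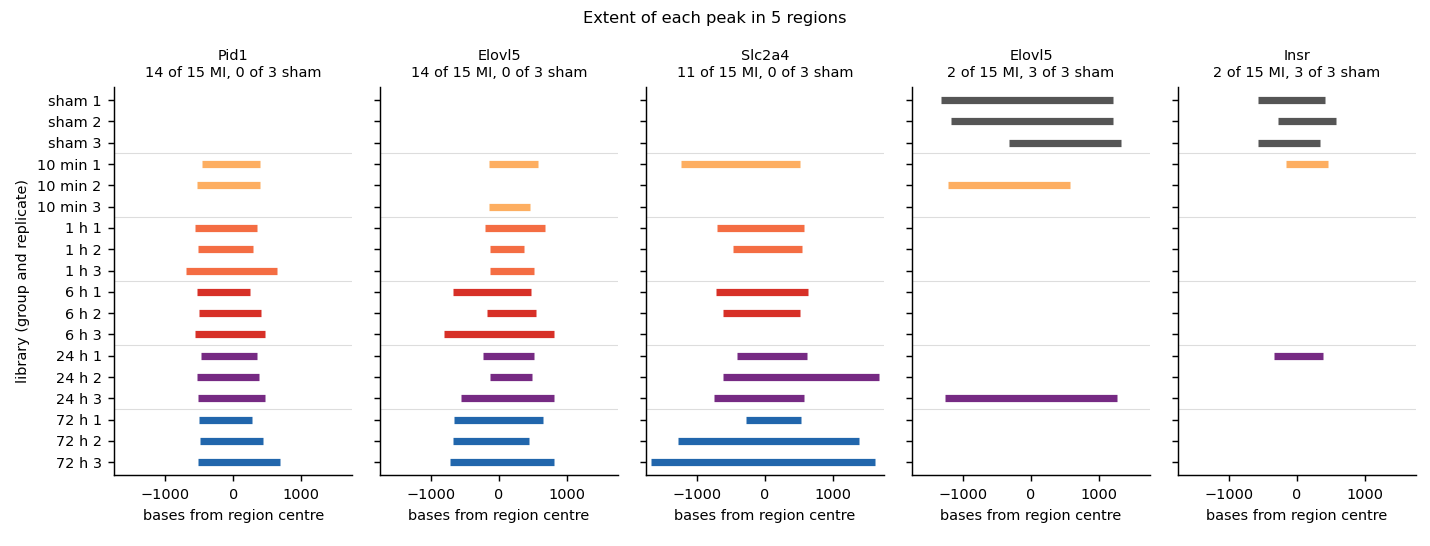
Extent of each peak around the centre of 5 regions (x axis, bases; rows, libraries coloured by group). The Pid1, Elovl5 and Slc2a4 regions on the left have no bar in sham, and the Elovl5 and Insr regions on the right have bars in the 3 sham and in 2 MI libraries each.

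The values of these 2 regions chose the genes and carry no test. For context, 2970 of all regions had a peak in exactly 14 libraries, and 2 of them, these 2, had none in sham. They were picked for this pattern, so the count is no measure of how unusual they are. Just outside the rule stood a region of Slc2a4 with 11 of 15 MI and 0 of 3 sham libraries, and no other region of the 10 genes without a sham peak had more than 8 MI libraries. How many libraries count depends on how weak a peak is admitted. With peaks of score 70 or more, 7 MI libraries kept the Pid1 peak and 8 the Elovl5 peak. With each list cut to its strongest peaks, as many as the shortest list held, 11 kept each, and no region of the 10 genes passed the rule under either setting. When a peak had to cover 50% of the region, Pid1 remained at 14 MI libraries and Elovl5 fell to 7. Sham stayed at 0 in all of these, which was fixed in advance, since each setting can only remove peaks.

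Other regions of Pid1 and Elovl5 behaved differently. In Pid1, chr1:84165547-84166781 had a peak in all 3 sham libraries (86.03, 54.68 and 69.27) and 7 of 15 MI libraries, none of them at 6 h. The Pid1 region at chr1:84263292-84265728, 20.1 kb downstream of the start, had the gene's highest score, 180.48 in 72 h replicate 1, and was present in 2 sham and 10 MI libraries. In Elovl5, chr9:77955657-77958317 showed the reverse of the chosen region 39.6 kb from the start. Its scores were 74.44, 54.62 and 57.04 in sham, and only 10 min replicate 2 (60.47) and 24 h replicate 3 (58.14) had a peak among the MI libraries. The former was the MI library that lacked the chosen Elovl5 peak. With peaks of score 70 or more this region was left with 1 sham and 0 MI libraries. A further Elovl5 region, chr9:77975415-77977534, had a peak in 8 MI libraries, among them all 3 at 72 h, and in no sham library.

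Over the whole windows of both genes MI and sham overlapped. Pid1 had a covered percent of 1.57%, 1.23% and 0.815% in sham and 0.452% (6 h replicate 1) to 1.93% (24 h replicate 2) in MI, with means of 1.21% ± 0.380 (SD, n = 3) and 1.27% ± 0.450 (SD, n = 15). For Elovl5 it was 4.77%, 8.08% and 2.33% in sham and 1.00% to 8.01% in MI, with means of 5.06% ± 2.89 (SD, n = 3) and 3.94% ± 2.05 (SD, n = 15). In both genes the MI values covered the sham range almost whole. The direction of the mean difference was not stable either. Without sham replicate 3 Pid1 went from 0.0585 to -0.138 percentage points (MI minus sham), and without sham replicate 2 Elovl5 went from -1.12 to 0.389.

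The regions whose state was most like that of the chosen ones matched in 17 of 18 libraries, 6 regions for Pid1 and 9 for Elovl5. Of the 5 with the highest mean score for each, 4 lay in no gene of the table in both cases, and the others lay in Rprd2 (chr3:95766965-95768262, for Pid1) and 1700123O12Rik (chr4:10747503-10748689, for Elovl5). The likeness is the count of libraries in the same state, and with 152196 regions searched it is a description only.

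**Figure D4:**
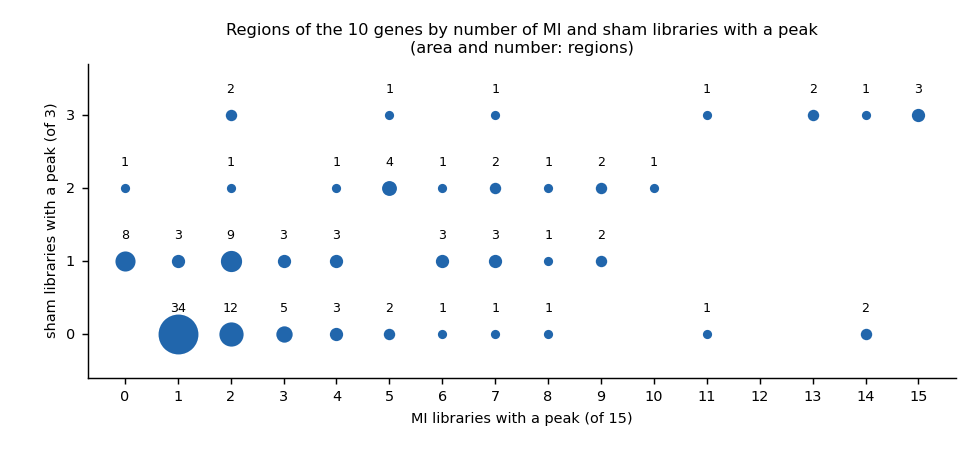
The 122 regions of the 10 genes by the number of MI libraries (x axis) and sham libraries (y axis) with a peak; dot area and the number above it give the count of regions. The 2 chosen regions sit at 14 MI and 0 sham libraries, the Slc2a4 region at 11 and 0, and 34 regions were seen in 1 MI library alone.

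Slc2a4 (chr11:69942286-69948216), which encodes the insulin-responsive glucose transporter GLUT4, held the region of the other 8 genes that was closest to meeting the rule for a region higher in MI. Its only region, chr11:69943419-69946772, lay inside the gene and spanned 3354 of its bases. No sham library had a peak there, and their nearest peak was 7.64 kb away. Among MI libraries the peak was seen in 10 min replicate 1 (72.33), in 1 h replicates 1 and 2 (66.94 and 51.41) and in 6 h replicates 1 and 2 (53.71 and 84.70). All later libraries had it, with 74.40, 82.68 and 65.70 in the 24 h group and 76.21, 116.07 and 104.75 in the 72 h group. The peak was thus present in 1 of 3 libraries of the 10 min group, in 2 of 3 of the 1 h and 6 h groups each, and in 3 of 3 of the 24 h and 72 h groups each. Fisher's exact test of 11 of 15 against 0 of 3 libraries gave p = 0.0429, with an adjusted p of 1 over all regions. The unadjusted value follows from the presence counts that set this region apart here, so it is no separate support.

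The covered percent of Slc2a4 was 0% in the 3 sham libraries and 12.1% ± 10.1 in MI (SD, n = 15), where 4 libraries were also at 0%. The gene held no other region, so this measure rests on the same peaks as the Fisher test. The exact permutation p was 0.0772 (adjusted p = 1). With limma, a linear model with moderated variances, on log2(covered percent + 0.5) the difference was 3.64 with an unadjusted p of 0.0165 and an adjusted p of 0.944. The 24 h libraries had 10.4%, 23.1% and 13.3% and the 72 h libraries 8.17%, 26.9% and 33.3%, above all sham values at both times (exact permutation p = 0.1 each, the smallest possible). Of all genes 1.75% lay above sham in this way at 24 h and 3.76% at 72 h. The fibroblast genes were also above sham at 24 h (2.74% to 3.34%), while the cardiomyocyte, leukocyte and endothelial genes overlapped sham. The part of these marker genes in the Slc2a4 value was not tested. The window also holds part of Ybx2, but the region lay in no other gene of the table. With peaks of score 70 or more 7 MI libraries kept the Slc2a4 peak, and 4 had peaks over 50% of the region.

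Cd36 (chr5:17781690-17888959), the fatty acid transporter of the heart, was nearly free of peaks. Its 3 regions were each seen in 1 library, chr5:17801014-17801672 in 24 h replicate 1 (score 74.58) and the other two, chr5:17827219-17827785 and chr5:17838333-17839235, in 72 h replicate 3 (77.75 and 81.72). The covered percent was 0.592% and 1.32% in these libraries and 0% in the other 16 libraries, sham included (exact permutation p = 0.853, adjusted p = 1).

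Ppara (chr15:85734910-85806851), the nuclear receptor PPARα, held 9 regions. Its recurrent region, chr15:85797319-85799423, lay 62.6 kb downstream of the start and had a peak in all 3 sham libraries (79.49, 73.62 and 50.97) and in 14 of 15 MI libraries, all but 1 h replicate 1. Its highest score was 125.94, in 72 h replicate 3. Its covered percent was 3.34%, 1.93% and 3.40% in sham. The 1 h libraries had 0.727%, 1.85% and 2.01%, and the 72 h libraries 5.54%, 5.41% and 6.76%. The 72 h values lay above all 3 sham values (exact permutation p = 0.1, the smallest possible; 3.76% of all genes lay above sham at 72 h) and above those of all other MI libraries, of which the highest was 4.40%.

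Over all MI libraries Ppara was at 3.18% ± 1.92 (SD, n = 15) against 2.89% ± 0.834 (SD, n = 3; exact permutation p = 0.784, adjusted p = 1), and the sign of this difference turned without sham replicate 2, to -0.191 percentage points. The 72 h lists were long, with 48608 to 60653 peaks against 44328 to 60130 in sham. With lists of equal length, limma's F test over the 6 groups gave an unadjusted p of 0.873 for Ppara and 0.0387 for Slc2a4. With the full lists it gave 0.0618 and 0.0559. The 72 h values were not compared with sham at equal length, and the part of list length in them was not tested. Cardiomyocyte marker genes moved with them: the mean covered percent of 8 such genes (Myh6, Tnnt2, Actc1, Ryr2, Pln, Nppa, Myl2 and Myl7) was 4.55% to 7.86% at 72 h and 2.78% to 3.68% in sham. For the 8 leukocyte genes, 4 of them without a peak in any library, the range of the mean at 72 h was 0.918% to 1.20%, also above sham. The ranges were 2.02% to 3.66% and 1.91% to 2.64% for the fibroblast genes, and 3.47% to 5.06% and 2.68% to 4.86% for 6 endothelial genes. The part of these in the results at 72 h was not tested.

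Ppargc1a (chr5:51454249-52115853), which encodes the coactivator PGC-1α, held 37 regions over a span of 661.6 kb, and 18 of them were seen in 1 library alone. Of its 2 recurrent regions, chr5:52105045-52106624 had a peak in all 3 sham libraries (122.37, 158.85 and 64.47) and 11 MI libraries, where the highest score was 123.99 (1 h replicate 1). The other, chr5:51921170-51922588, was marked in 2 sham and 9 MI libraries. Both lay upstream of the start in the promoter table, at 538.1 and 354.2 kb, inside the annotated gene span. A region at chr5:51472434-51474963 had a peak in the 3 sham libraries, in none at 1 h and in 5 MI libraries in all.

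The covered percent of Ppargc1a was 1.07%, 0.922% and 0.823% in sham, and 12 of 15 MI libraries lay below the sham mean (0.741% ± 0.412, SD, n = 15, against 0.938% ± 0.125, SD, n = 3; exact permutation p = 0.409, adjusted p = 1). At 24 h it was 0.383%, 0.526% and 0.700%, below each sham value (exact permutation p = 0.1, the smallest possible; 3.45% of all genes lay below sham at 24 h). The part of the fibroblast genes, the only marker list above sham at this time, was not tested here either. The highest value of all was 1.88%, in 6 h replicate 2, so at 6 h the groups overlapped.

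**Figure D5:**
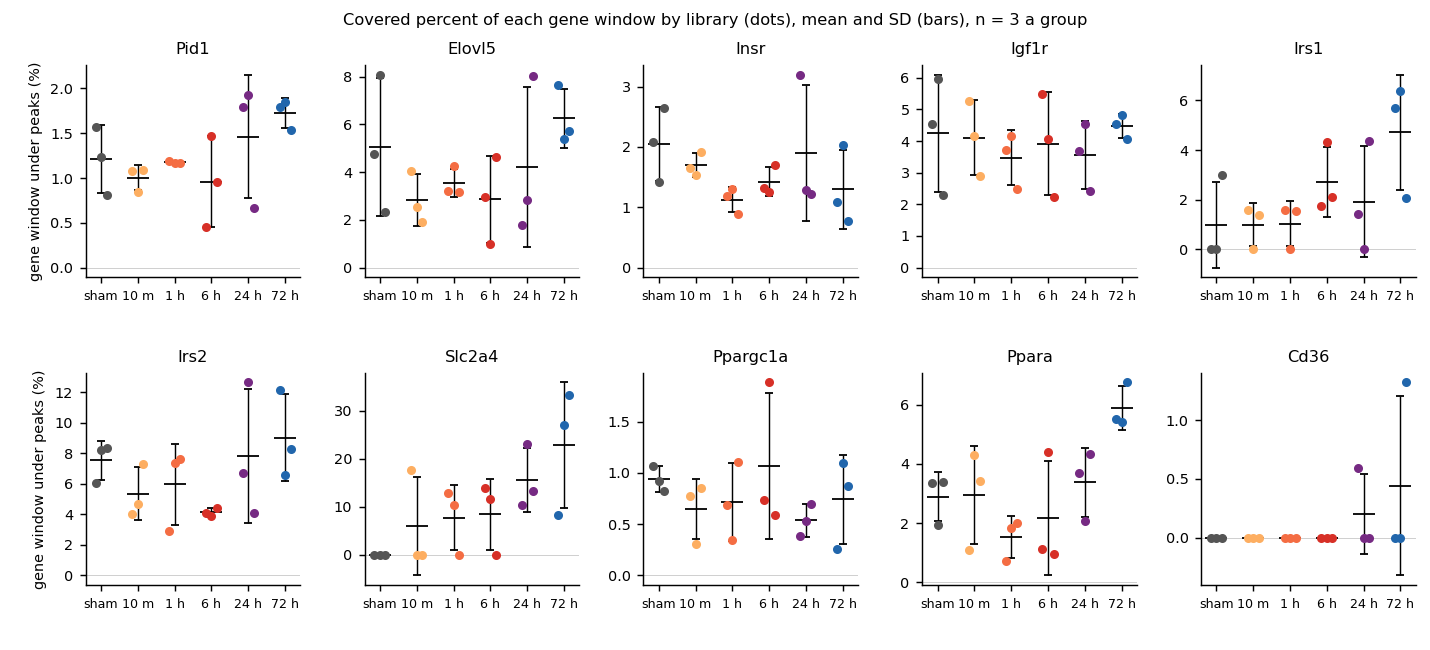
Percent of each gene window under peaks in every library (dots, y axis) by group (x axis), with the mean and SD of 3 libraries a group (bars). Slc2a4 is at 0% in sham and above it in the 3 libraries of the 24 h and of the 72 h group, and Ppara is highest at 72 h (5.41% to 6.76%).

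Taken one time at a time, a region was counted as higher where all 3 libraries of the time and no sham library had a peak, and as lower in the opposite case. At 10 min none of the 122 regions was higher or lower, against 0.216% and 0.624% of all regions. At 1 h 2 regions were higher (the chosen ones of Pid1 and Elovl5) and 3 lower (in Elovl5, Insr and Ppargc1a), against 0.225% and 0.553%. At 6 h a region of Igf1r joined the chosen ones as higher, and 3 regions were lower, in Pid1, Elovl5 and Insr, against 0.201% and 0.706% of all regions. At 24 h the Slc2a4 region and the chosen ones were higher and none was lower, against 0.393% and 0.524%. At 72 h 4 regions were higher, those of 24 h and a second region of Elovl5, and the same Elovl5 and Insr regions as at 6 h were lower, against 0.719% and 0.397%. With 2 of the regions chosen for this pattern, and the 3 sham libraries shared by all of these comparisons, the counts of higher regions are a description.

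For whole genes, 6 of the 50 comparisons of a gene at a time with sham did not overlap. These were given above for Insr, Irs2, Slc2a4 (at 24 h and 72 h), Ppargc1a and Ppara. Of all genes, 4.72% lay below sham in this way at 1 h and 3.6% at 6 h. At 24 h 1.75% lay above and 3.45% below, and at 72 h 3.76% lay above. The shares of all genes without overlap in the directions where none of the 10 stood were 1.5% above and 3.5% below sham at 10 min, 1.09% above at 1 h, 1.47% above at 6 h and 1.97% below at 72 h. With 0.1 as the smallest p of a single comparison, no adjusted value over the 50 can be lower.

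None of the 10 genes passed the test of all MI libraries against sham. The exact permutation test with adjustment over 21883 genes passed 0 genes in all. Its smallest p is 0.00123, which can pass that adjustment only where many genes share it. Without adjustment 709 genes (3.24%) had a p under 0.05, none of them among the 10. With limma on the same contrast 6 genes passed the adjusted threshold and 806 the unadjusted one, of the 10 genes only Slc2a4 the latter. Across all 6 groups limma's F test called 42 genes (0.192%) at an adjusted p under 0.05 and 1084 (4.95%) without adjustment, and none of the 10 was among either. The lowest unadjusted values were 0.0559 for Slc2a4 and 0.0618 for Ppara, both with an adjusted p of 1. With each list cut to its strongest 34255 peaks, the length of the shortest, the value was 0.0387 for Slc2a4 and 0.873 for Ppara. The F test sets differences between groups against the spread between the 3 mice of a group, moderated over all genes. In the tests of MI against sham the MI libraries of all times form a single group, so its spread includes differences between times.

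The wider pathways showed no region of the kind that picked Pid1 and Elovl5. Genes with a region higher in MI by the rule above were 36 of 21883 (0.165%), and genes with a region lower in MI were 219 (1.00%). Among 31 further insulin signalling genes (from Pik3ca and Akt2 to Mtor and Igf1), 29 further genes of fatty acid use (such as Cpt1b, Acadm and Fads2) and 20 of glucose use (such as Hk2, Pfkm and Pdk4), there was none of either. The median covered percent was 2.51% in the insulin list, 2.06% in the fatty acid list and 1.64% in the glucose list, against 1.56% over all genes. The mean over the insulin list was 3.94% to 4.30% at 72 h and 2.24% to 4.07% in sham, which overlapped. In the glucose list it was 3.13% to 3.39% at 72 h and 1.68% to 3.10% in sham, and in the fatty acid list 2.44% to 3.80% and 1.38% to 3.49%.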

How the data were processed

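Methylated DNA from 18 mouse heart samples was measured by MeDIP-seq. The authors deposited 1 peak list for each library, with chromosome, start, end, peak name and a score for each peak; the scale of the deposited score is not stated. The submitters' processing notes name Bowtie2, MACS2 and mm10, with no versions or settings. Sequencing depth, exon positions and the genome sequence under the peaks were not used here.

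Peaks of all lists were merged where they shared at least 1 base, and each library was scored as having a peak in a region or not. Genes came from the RefSeq table of GRCm38.p6 (build mm10), with 2000 bases on either side. The covered percent of a gene was tested for MI against sham by a two-sided exact permutation over the 816 assignments of libraries, and over 6 groups with limma 3.58.1 (R 4.3.3) on log2(covered percent + 0.5); regions were tested by Fisher's exact test. These p-values were adjusted over all genes or all regions (Benjamini-Hochberg); single times against sham were compared by the exact permutation test without adjustment. Other steps used Python 3.11.15 with scipy 1.17.1, and the tests were tested on simulated data.

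The genes, the pathway lists (insulin signalling, fatty acid use, glucose use) and the marker lists (cardiomyocyte, leukocyte, fibroblast, endothelial) were chosen with earlier results of these data known. All 10 genes are named whatever their values; regions are described by position where at least 9 of 18 libraries had a peak or where either presence rule was met, others by counts, except regions counted at 1 time point and those of Cd36, named after their values were seen. For likeness, the 5 regions with the most libraries in the same state are considered, ties broken by mean score. Alternatives were peaks of score 70 or more, each list cut to its strongest 34255 peaks, the length of the shortest, an overlap of 50%, windows of 0 and 10000 bases beside the gene, the number of peaks, limma for MI against sham, pseudocounts of 0.1 and 2, genes covered in at least 3 libraries, the replicate number as a block, and leaving out each library.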

Additional observations from a re-analysis of the deposited data

Results flagged for a closer look

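In 3 of the genes all 3 libraries at 72 h lay above the sham mean of the covered percent. All 3 libraries of an earlier time lay below it. These pairs of times were not tested on their own. Limma's F test over the 6 groups gave unadjusted p-values of 0.299 for Pid1, 0.347 for Elovl5 and 0.0618 for Ppara. None passed the adjusted threshold. In Pid1 the 72 h mean exceeded that of the 10 min group by 0.723 percentage points and that of the 1 h group by 0.552. In Elovl5 it was 3.43 percentage points above 10 min, 2.70 above 1 h and 3.38 above 6 h. In Ppara it was 4.37 percentage points above 1 h. The 72 h lists held 48608 to 60653 peaks, those at 10 min 37084 to 52259, those at 1 h 43400 to 45466 and those at 6 h 34255 to 50535, and the part of list length in these differences was not tested.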

How the results depend on the processing

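The count of regions higher in MI was 2. It became 0 with score 70 or more, 0 with lists cut to the length of the shortest and 1 with an overlap of 50%. In every set that left out 1 library it was 2. It could not be lower there, because the 2 chosen regions still met the rule. The count of regions lower in MI was 2 and became 0 under the first of these settings and 0 under the second. It ran from 2 to 4 when libraries were left out, where the lower end is fixed by the counts of the 2 lower regions. The 4 came without sham replicate 3, where the rule asks for a peak in the remaining sham libraries only. Leaving it out added a region of Igf1r and one of Ppargc1a. No gene of the 10 passed the adjusted threshold in any of 25 alternatives for MI against sham or 26 for the 6 groups. The smallest p of the exact permutation test ran from 0.00123 with all libraries to 0.00735 without a sham library. Over 21883 genes such a value passes only where many genes share it. The permutation alternatives could therefore hardly have called a gene.

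The covered percent difference (MI minus sham, percentage points) turned its sign for Elovl5 to 0.618 and for Igf1r to 0.102 and for Ppargc1a to 0.00396 with lists of equal length, and for Ppara to -0.339 with score 70 or more and to -0.0100 with 10000 bases beside the gene. Counted in peaks per library in place of percent, the Elovl5 difference was 0.2 peaks. Leaving out 1 library gave -0.138 to 0.241 for Pid1, -2.49 to 0.389 for Elovl5, -1.33 to 0.4997 for Igf1r and -0.191 to 0.546 for Ppara; the negative Pid1 value came without sham replicate 3, the turned signs of the other 3 without sham replicate 2. The causes were not tested. The differences of Insr, Irs1, Irs2, Slc2a4 and Cd36 kept their sign in all 24 alternatives each. For Slc2a4 and Cd36, at 0% in all 3 sham libraries, only the windows of 10000 bases could have turned it. Size moved when 1 library was left out. Insr went from -0.557 to -0.259 without sham replicate 3 and -0.872 without sham replicate 2. Irs1 went from 1.29 to 0.788 without sham replicate 1 or 2 and 2.28 without 3. Irs2 went from -1.07 to -1.81 without sham replicate 1 and -0.674 without 3, and Cd36 from 0.128 to 0.0423 without 72 h replicate 3.

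With the replicate number as a block, 0 of the 10 genes passed in either test, and Slc2a4 had p = 0.0926 (exact permutation within numbers, adjusted p = 1); the block called 34 genes over the 6 groups, against 42. Libraries of the same number were not clearly more alike than others. Their deviations from the group means had correlations of -0.0612 to 0.0734, against -0.0787 to 0.0714 for different numbers. Of the 18 libraries, 6 correlated best with one of their own number. Whether a number stands for a shared batch cannot be told from this. With 3 sham libraries a peak missed in 1 of them can move a count, and without read counts a missing peak cannot be told from a weak one.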
